A study of Mus musculus with 16 samples.

Results

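The 10 genes described here are markers of liver sinusoidal endothelial cells: Stab1, Stab2, Lyve1, Clec4g, Kdr, Pecam1, Oit3, Fcgr2b, Dnase1l3 and Cdh5. They were taken from a table of liver gene expression by their symbols, 10 of 24082 Ensembl genes, and all 10 passed the filter on low values. Liver RNA came from 16 female C57BL6/J mice that were 9 to 11 weeks old, with 4 mice in each of 4 groups. Pair vehicle mice were fed the control liquid diet in amounts matched to the ethanol-fed mice, Pair IMC mice received the same diet with iodomethylcholine, EtOH vehicle mice were fed the Lieber-DeCarli chronic ethanol diet, and EtOH IMC mice received that ethanol diet with iodomethylcholine. Iodomethylcholine (IMC) inhibits the enzyme with which gut bacteria turn choline into trimethylamine. In the study, food intake and body weight were lower in EtOH IMC than in EtOH vehicle mice, and body weight also differed between the pair-fed groups. The intake of diet and ethanol therefore cannot be told apart from IMC in ethanol-fed mice, and body weight cannot in either diet. Since the control diet was matched to the ethanol-fed mice, intake may also have differed between Pair vehicle and Pair IMC. The sources used here do not state whether it did. The averaged comparisons and ethanol under IMC also include EtOH IMC mice.

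Liver sinusoidal endothelial cells line the capillaries of the liver lobule. They are perforated by open pores, lack a continuous basement membrane, and clear waste macromolecules and immune complexes from portal blood. Stab1 and Stab2 encode the stabilins, scavenger receptors for hyaluronan, modified proteins and other waste molecules, and Lyve1 encodes a hyaluronan receptor that lymphatic endothelium and some macrophages also carry. Fcgr2b encodes the inhibitory Fc receptor that takes up small immune complexes in the sinusoid, and Clec4g encodes a C-type lectin. Kdr encodes VEGF receptor 2, Cdh5 encodes VE-cadherin of endothelial junctions, and Pecam1 encodes an adhesion molecule of endothelium, platelets and leukocytes. Dnase1l3 encodes a secreted DNase that degrades DNA in chromatin. Oit3 encodes a secreted protein whose role in these cells is less well described. Sinusoidal cells around the central vein also secrete Wnt ligands that act on the neighboring hepatocytes.

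The genes lie on 7 chromosomes of GRCm38. Stab1 (ENSMUSG00000042286) spans chr14:31139013-31168641, Stab2 chr10:86841198-87008025, Lyve1 chr7:110850607-110863239, Clec4g chr8:3707064-3720651, Kdr chr5:75932827-75978458, Pecam1 chr11:106654217-106750628, Oit3 chr10:59422958-59441778, Fcgr2b chr1:170958617-170976547 and Dnase1l3 chr14:7964533-7994573, all on the minus strand. Cdh5 spans chr8:104101625-104144511 on the plus strand. Stab1, Stab2, Clec4g, Fcgr2b and Cdh5 each overlap at least 1 annotated gene on the opposite strand, and whether the read counting used strand was not given in the sources used here. Fcgr2b also shares closely similar sequence with other Fc receptor genes, so its count is uncertain to that extent.

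Promoter sequence was available from RefSeq (GRCm38.p6) for 5 of the 10 genes. The 250 bases before the start site are shown for Clec4g and Kdr, which were called higher in ethanol-fed livers, and for Stab1, which was not. They are printed 5′ to 3′ on the strand of the gene (minus), and capitals mark the ETS core, searched as AGGAAG or CGGAAG on either strand; ETS factors are regulators of endothelial genes. Clec4g lies at chr8:3720652-3720901, Kdr at chr5:75978456-75978705 and Stab1 at chr14:31168642-31168891.
Clec4g: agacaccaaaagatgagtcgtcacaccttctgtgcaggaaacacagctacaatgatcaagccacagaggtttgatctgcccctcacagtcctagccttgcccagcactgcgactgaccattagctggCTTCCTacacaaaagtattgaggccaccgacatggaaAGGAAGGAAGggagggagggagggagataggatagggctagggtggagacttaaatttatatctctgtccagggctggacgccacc
Kdr: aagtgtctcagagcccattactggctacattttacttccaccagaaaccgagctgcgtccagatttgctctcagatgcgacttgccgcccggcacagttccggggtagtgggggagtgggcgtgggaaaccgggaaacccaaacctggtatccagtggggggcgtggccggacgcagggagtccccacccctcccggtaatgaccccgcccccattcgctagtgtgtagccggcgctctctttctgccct
Stab1: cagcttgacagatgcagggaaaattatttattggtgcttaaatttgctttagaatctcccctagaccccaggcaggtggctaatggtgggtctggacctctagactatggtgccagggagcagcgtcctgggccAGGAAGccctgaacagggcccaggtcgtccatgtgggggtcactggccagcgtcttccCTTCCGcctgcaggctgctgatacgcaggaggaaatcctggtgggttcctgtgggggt
The Kdr window held 61.6% GC and 16 CpG dinucleotides and no match to the core. The Clec4g window held 52.0% GC, 4 CpG and 3 matches, of which those at 86 and 82 bases before the start overlap each other. The Stab1 window held 57.2% GC, 5 CpG and 2 matches. Of the 5 member windows 3 held a match, against 39.2% of 32851 mouse promoter windows of the same length, and the GATA core AGATAA (either strand) was in none of the 5 against 9.99% of all windows. A match to these letters is not a binding site. The Kdr window reaches 3 bases into the annotated gene. Those of Stab2 and Fcgr2b reach 83 and 250 bases into it and are not printed.

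Between 9632659 and 12601199 reads were counted on genes per library. As deposited, the median gene was 1.14-fold higher in ethanol-fed than in pair-fed libraries (0.19 on the log2 scale), so all 16 libraries were rescaled by a median ratio, and the values given are rescaled normalized read counts on a linear scale. Differences are log2 fold changes from limma on log2(value + 1), with a standard error (SE) and a p-value adjusted over the 12543 genes tested, and a gene was called where this p was under 0.05. Libraries 1 to 8 were Pair IMC and EtOH vehicle, and libraries 9 to 16 were Pair vehicle and EtOH IMC, so every comparison of a single pair of groups also compares early with late library numbers. The comparisons averaged over the other factor are balanced over early and late numbers. All pair-fed libraries have even numbers and all ethanol-fed libraries odd ones, so diet and odd or even numbering cannot be told apart. In whole liver RNA, fewer cells of a type and less RNA per cell cannot be told apart. Hepatocyte transcripts dominated: the summed level of 5 hepatocyte markers (Alb, Apoa1, Apob, Ttr and Ahsg) was between 1001120 and 1854950 per library, and that of the 10 endothelial members was between 4531 and 6321.

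Per kb of exon, Clec4g was the member with the highest level, at 308 ± 55.0 rescaled counts per kb (SD, n = 16 libraries). Dnase1l3 (127 ± 20.0), Oit3 (125 ± 22) and Fcgr2b (122 ± 12.3) followed and were close to each other. Stab2 was at 96.2 ± 15.5, Kdr at 79.4 ± 11.8, Cdh5 at 77 ± 12.5 and Stab1 at 64.5 ± 8.19 counts per kb. Lyve1 (50.2 ± 16.8) and Pecam1 (44.8 ± 5.31) were the lowest. Clec4g exceeded Dnase1l3 in 16 of 16 libraries, and Fcgr2b exceeded Stab2 in 16 of 16. Dnase1l3 exceeded Oit3 in 7 of 16, Oit3 exceeded Fcgr2b in 9 of 16, Kdr exceeded Cdh5 in 9 of 16 and Lyve1 exceeded Pecam1 in 8 of 16, so on this length these neighbors did not differ beyond their spread. The order depends on the length used. With the longest annotated transcript in place of the union of exons, Fcgr2b moved to rank 2, Oit3 exceeded Fcgr2b in 0 of 16 libraries, Kdr exceeded Cdh5 in 16 of 16 and Lyve1 exceeded Pecam1 in 1 of 16, while Dnase1l3 exceeded Oit3 in 11 of 16.

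**Figure D1:**
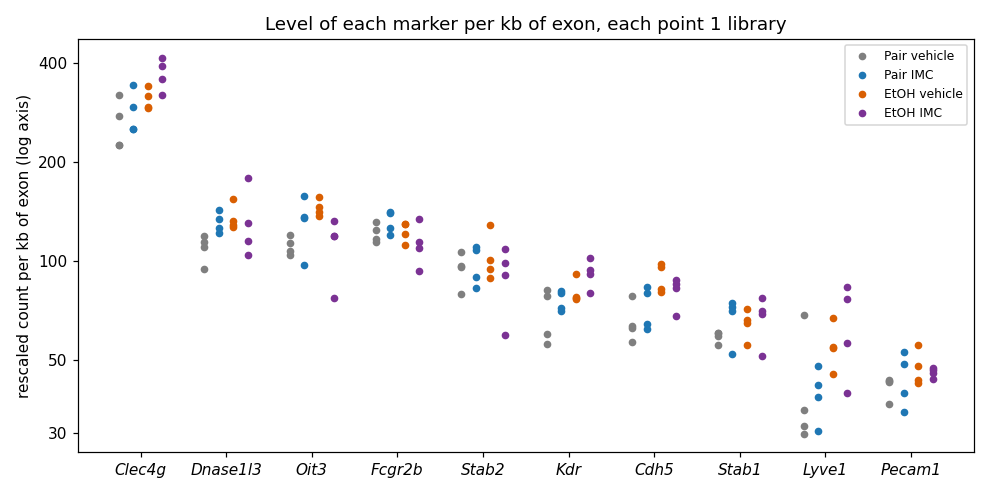
Level of each marker as rescaled normalized count per kb of exon (log axis), each point 1 library, colored by group, with genes ordered by their mean. Clec4g lies above every other marker in all 16 libraries, and Lyve1 has the widest spread, from 29.9 to 83.3 counts per kb.

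The members differed in how much they varied from mouse to mouse. Lyve1 ranged 2.79-fold over the 16 libraries, with a coefficient of variation of 33.5%. Fcgr2b had a coefficient of variation of 10% and Pecam1 of 11.9%, and the other members lay between 12.7% (Stab1) and 17.9% (Clec4g). Part of the variation was shared: after the group means were removed, all 45 pairs of members had a positive correlation over the 16 libraries (median Pearson r 0.49, range 0.06 to 0.84). These r are a description only, since the points share a library and its scaling. The highest was between Stab1 and Oit3 (r = 0.84), and the lowest between Lyve1 and Fcgr2b (r = 0.06).

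The shared variation was plain in single livers. In library 11 of EtOH IMC, 0 of 10 members lay above the mean of the group, with a median deviation of -0.28 on the log2 scale. In library 8 of Pair IMC, 10 of 10 lay above it, with a median deviation of 0.14. In library 4 of Pair IMC, 1 of 10 lay above the group mean (median -0.17), and in library 16 of Pair vehicle 9 of 10 did (median 0.15). Library 11 also had the lowest summed level of 34 other endothelial genes in EtOH IMC, at 8511 against a highest of 10655 in that group. Its sum of 11 Kupffer cell markers was 3679, the lowest of its group as well, where the highest was 5812. The hepatocyte (1001120) and lymphocyte (17.9) sums of library 11 were also the lowest of the group. Its stellate (4698), bile duct (718) and blood cell (63.0) sums were not. For the members and for several other genes, calls that rest on EtOH IMC are given with and without library 11.

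**Figure D2:**
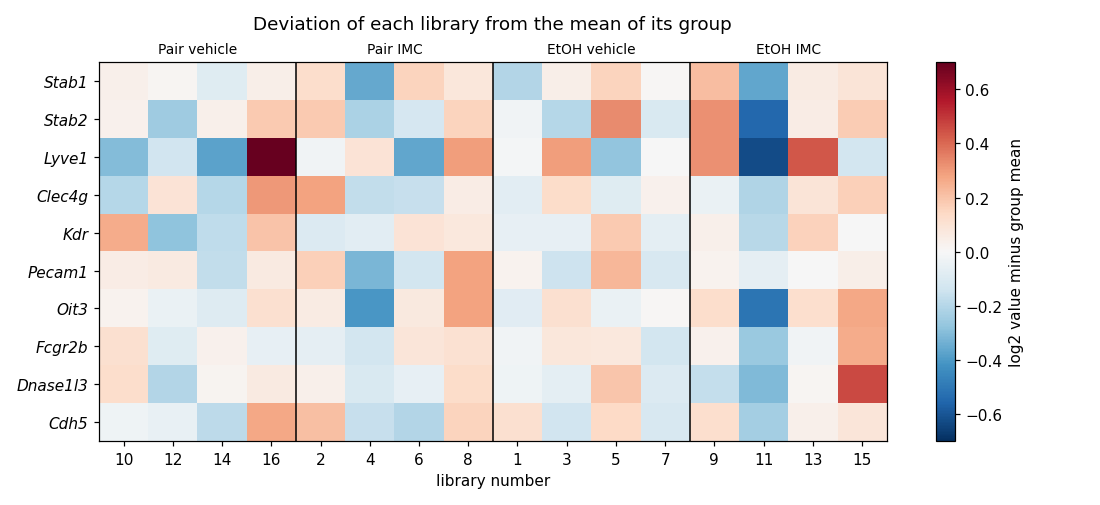
Deviation of each library from the mean of its group for each marker, on the log2(value + 1) scale, with libraries in columns and black lines between groups. Library 11 is below the group mean for all 10 markers and library 8 is above it for all 10, and Lyve1 in library 16 has the darkest positive cell.

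The genes outside the list whose pattern was most like the mean of the members' standardized log2 values over the 16 libraries were Mrc1 (r = 0.88), Zfp366 (0.82), Dpp7 (0.81), Slc18b1 (0.81), Samd12 (0.80), Capn2 (0.80), Slc12a5 (0.79), Exoc4 (0.79), Myo7a (0.78) and Ehd3 (0.78). Mrc1, the mannose receptor, is an endocytic receptor of sinusoidal endothelium and of macrophages, and Ehd3 encodes a membrane trafficking protein. With the group means removed, r for Mrc1 was 0.87 and that for Ehd3 was 0.80. The 10 genes were the highest of all tested genes by this measure, which is a description of likeness over the same libraries.

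Ethanol feeding was compared with pair feeding first as an average over vehicle and IMC, which is the comparison balanced over early and late library numbers. 4 of the 10 members were called, and all 4 were higher: Lyve1, Clec4g, Cdh5 and Kdr. Of all genes tested 26.1% were called in this comparison, and 12.9% were called higher. The median log2 fold change of the 10 members was 0.14, against -0.0026 over all genes, and 8 of 10 members were above 0 against 49.6% of genes.

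Clec4g read 554.6, 680.8, 554.5 and 787.2 in Pair vehicle and 847.4, 619.0, 622.9 and 724.4 in Pair IMC. In ethanol-fed livers it read 725.9, 836.3, 721.2 and 781.9 in EtOH vehicle and 880.8, 785.5, 968.1 and 1023 in EtOH IMC. The group mean was lowest in Pair vehicle (644 ± 112) and highest in EtOH IMC (914 ± 104, SD, n = 4), and pair-fed and ethanol-fed libraries overlapped. Its log2 fold change with ethanol was 0.32 (SE 0.088, limma adjusted p = 0.0119), 1.25-fold, and the adjusted p was at most 0.0282 under every alternative run.

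Cdh5, the junction cadherin, read 266.7, 262.7, 239.5 and 328.6 in Pair vehicle and 349.6, 270.3, 262.0 and 336.9 in Pair IMC. It read 403.1, 339.7, 411.8 and 344.8 in EtOH vehicle and 368.6, 287.1, 348.4 and 359.3 in EtOH IMC. The 4 EtOH vehicle libraries lay above the 4 Pair vehicle libraries, while the Pair IMC libraries reached 349.6 and overlapped both ethanol-fed groups. The log2 fold change was 0.31 (SE 0.086, limma adjusted p = 0.0140), 1.24-fold, and the adjusted p was at most 0.0335 under every alternative run.

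Lyve1 had the largest change and the largest error of the 4. It read 91.9, 103.3, 87.3 and 200.6 in Pair vehicle and 112.4, 122.4, 88.7 and 140.6 in Pair IMC. It read 158.7, 196.7, 132.1 and 160.2 in EtOH vehicle and 224.1, 115.9, 243.3 and 164.4 in EtOH IMC. The log2 fold change was 0.57 (SE 0.18, limma adjusted p = 0.0254), 1.48-fold. The call was lost when library 10 or 14 of Pair vehicle, 6 of Pair IMC, 3 of EtOH vehicle or 9 or 13 of EtOH IMC was left out, with adjusted p between 0.0505 and 0.0565 and log2 fold changes of 0.50 to 0.52. The pair-fed library with the most Lyve1, library 16, also had the largest summed Kupffer cell level (8702, against 3114 to 4563 in the other Pair vehicle libraries). Its hepatocyte (1854950), stellate (6149), lymphocyte (103) and blood cell (309) sums were the highest of Pair vehicle as well, and its bile duct sum (795) was not. The part of any of these cells in its Lyve1 value was not tested.

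Kdr read 736.1, 505.7, 542.7 and 706.4 in Pair vehicle and 638.8, 649.4, 730.7 and 720.6 in Pair IMC. It read 698.9, 700.9, 826.1 and 694.6 in EtOH vehicle and 848.8, 724.1, 924.0 and 825.0 in EtOH IMC. The groups overlapped, and the highest values were in EtOH IMC. The log2 fold change was 0.26 (SE 0.081, limma adjusted p = 0.0259), 1.2-fold. The call was lost without library 12 or 14 of Pair vehicle, 2 of Pair IMC, 5 of EtOH vehicle or 13 of EtOH IMC, with adjusted p between 0.0505 and 0.0581 and log2 fold changes of 0.21 to 0.24.

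The other 6 members were not called for ethanol averaged over treatments. The log2 fold changes were 0.06 for Stab1, -0.02 for Stab2, 0.13 for Pecam1, 0.07 for Oit3, -0.11 for Fcgr2b and 0.15 for Dnase1l3. For the stabilins the 95% intervals ran from -0.13 to 0.25 (Stab1) and from -0.26 to 0.22 (Stab2), so changes within these bounds remain possible. The calls depend on the scaling between diets: with the values as deposited, 7 members were called higher, with Stab1 (0.25), Pecam1 (0.32) and Dnase1l3 (0.34) added. Those values contain the shift of 0.19 of the median gene, which the rescaling removes. Without library 11 the same 4 members were called, with log2 fold changes of 0.67 for Lyve1, 0.36 for Clec4g, 0.35 for Cdh5 and 0.29 for Kdr.

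**Figure D3:**
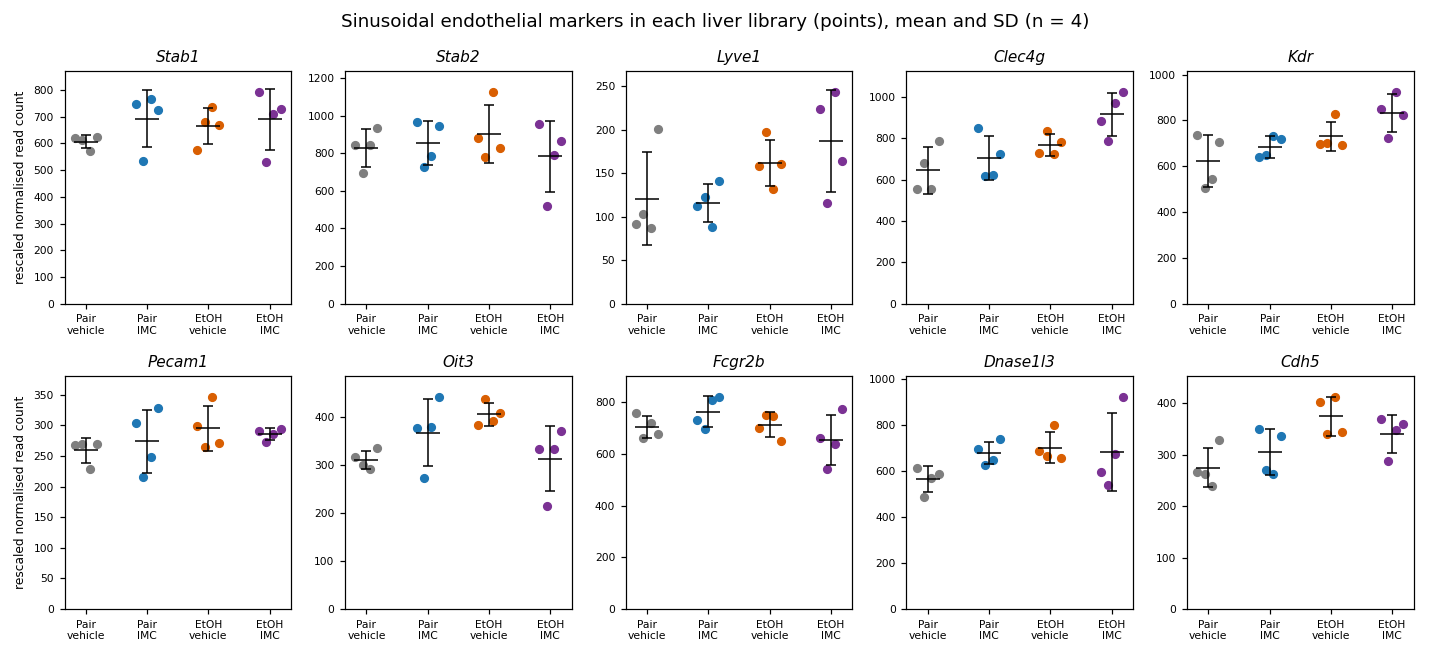
Rescaled normalized read count of each marker in each of the 16 libraries (points), with the mean and SD of each group of 4. Lyve1, Clec4g, Kdr and Cdh5 were called higher in ethanol-fed livers, and in Oit3 the EtOH vehicle libraries lie above the Pair vehicle and the EtOH IMC libraries.

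Without IMC, ethanol was compared over the 4 Pair vehicle and 4 EtOH vehicle livers. All 10 members were above 0 (49.0% of genes were), with a median log2 fold change of 0.25 against -0.0072 over all genes. The members varied together within groups, so their signs are not 10 separate observations. Cdh5 was called, at 0.45 (SE 0.12, limma adjusted p = 0.0239), 1.37-fold, where 11.9% of genes were called and 6.33% were called higher. That call was lost without library 12 or 14 of Pair vehicle or library 1 or 5 of EtOH vehicle, with adjusted p between 0.0509 and 0.0770. Groups of 4 did not overlap for 3 members, Oit3, Dnase1l3 and Cdh5, all higher with ethanol, where 9.92% of genes were so. Oit3 had a log2 fold change of 0.38 (SE 0.15, limma adjusted p = 0.105) and Dnase1l3 of 0.31 (SE 0.13, limma adjusted p = 0.124). Lyve1 (0.49), Clec4g (0.26), Kdr (0.24), Pecam1 (0.19), Stab1 (0.13), Stab2 (0.12) and Fcgr2b (0.02) overlapped. Lyve1 was called without library 16, at 0.77 (adjusted p = 0.0328).

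Under IMC, ethanol was compared over the 4 Pair IMC and 4 EtOH IMC livers. Clec4g was called, at 0.38 (SE 0.12, limma adjusted p = 0.0424), 1.30-fold, and at 0.45 without library 11 (adjusted p = 0.0237), where 16.4% of genes were called and 7.85% were called higher. This call was lost without library 4, 6 or 8 of Pair IMC, 1, 5 or 7 of EtOH vehicle, or 9, 13 or 15 of EtOH IMC, with adjusted p between 0.0504 and 0.122. Lyve1 had a larger difference, 0.64 (SE 0.25, limma adjusted p = 0.0877), and was called at 0.85 without library 11 (adjusted p = 0.0234). Fcgr2b was at -0.23 (SE 0.098, limma adjusted p = 0.112), and was called lower at -0.32 without library 15 (adjusted p = 0.0355). The median of the 10 members was 0.04 against 0.0035 over all genes, and 5 of 10 were above 0 against 50.4% of genes.

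IMC was compared with vehicle in each diet, and no member was called. In pair-fed mice 0 of 10 were called by limma, where 9.47% of genes were, and 0 of 10 had an unadjusted p under 0.05 (25.7% of genes did). All 10 were above 0 (49.8% of genes were), with a median of 0.14 against -0.00092, and edgeR and DESeq2 on whole reads likewise called 0. This comparison and ethanol without IMC share the Pair vehicle livers as reference. The members also varied together within groups, so their signs are not 10 separate observations. Dnase1l3, the secreted DNase, read 612.9, 487.0, 568.6 and 587.6 in Pair vehicle and 693.0, 626.9, 648.0 and 737.1 in Pair IMC. The groups did not overlap, where 7.38% of genes were higher without overlap, and its log2 fold change was 0.26 (SE 0.13, limma adjusted p = 0.211).

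In ethanol-fed mice 0 of 10 members were called by limma, where 21.5% of genes were, and 1 of 10, Oit3, had an unadjusted p under 0.05 (34.8% of genes did). Of the members 4 were above 0 (49.8% of genes were) and the median was -0.05, against -0.0015 over all genes. Oit3 read 383.3, 437.5, 392.2 and 407.7 in EtOH vehicle and 333.1, 214.7, 332.4 and 369.7 in EtOH IMC, without overlap, where 12.9% of genes were lower without overlap. Its Pair vehicle values were 316.0, 300.1, 291.4 and 334.8, and its Pair IMC values were 377.2, 272.3, 379.0 and 440.7. The level was thus highest in EtOH vehicle, at 405 ± 23.8, and close between Pair vehicle (311 ± 19.1) and EtOH IMC (312 ± 67.5, SD, n = 4). The IMC difference in ethanol-fed mice was -0.40 on the log2 scale (SE 0.15, 95% interval -0.72 to -0.085, limma adjusted p = 0.0653). A single library decided much of it: without library 11 it was -0.23 (adjusted p = 0.217), and without library 4 of Pair IMC (-0.40, adjusted p = 0.0385) or library 15 of EtOH IMC (-0.49, adjusted p = 0.0393) it passed the threshold. edgeR and DESeq2 on whole reads of all 16 libraries called 0 of 10, and without library 15 each called Oit3.

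The remaining members in ethanol-fed mice lay between -0.23 (Stab2) and 0.25 (Clec4g), with adjusted p from 0.161 to 0.844. Averaged over both diets, 0 of 10 members were called by limma, where 28.1% of genes were, and 1 of 10, Clec4g, had an unadjusted p under 0.05 (39.8% of genes did). Of the members 7 were above 0 against 49.1% of genes. Clec4g was at 0.19 (SE 0.088, 95% interval 0.0057 to 0.37, limma adjusted p = 0.114) and was called without library 16 of Pair vehicle, at 0.24 (adjusted p = 0.0383). Kdr was at 0.17 (SE 0.081, limma adjusted p = 0.130), and the other 8 lay between -0.09 and 0.11. edgeR and DESeq2 called 0 of 10 in the average.

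The IMC effects of the diets (ethanol minus pair) were also compared directly. Limma, edgeR and DESeq2 each called 0 of 10 members, where limma called 1.11% of genes, and 1 of 10, Oit3, had an unadjusted limma p under 0.05 (15.3% of genes did). Oit3 differed by -0.62 (SE 0.21, limma adjusted p = 0.164), and by -0.45 without library 11 (adjusted p = 0.215). The members' median was -0.19, against -0.0012 over all genes, and 3 of 10 were above 0 against 49.8% of genes. This comparison sets libraries 9 to 16 against libraries 1 to 8. A difference of the IMC effects between diets therefore cannot be told apart from early and late library numbers.

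**Figure D4:**
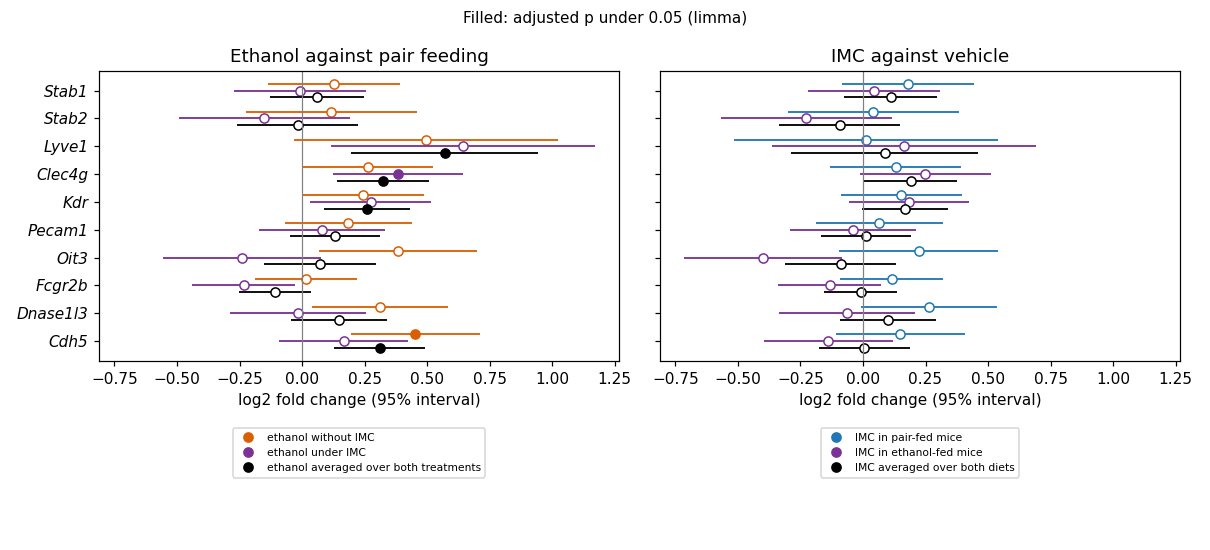
Log2 fold changes of the 10 markers with 95% intervals, for ethanol against pair feeding (left) and IMC against vehicle (right), filled where the limma adjusted p was under 0.05. Filled points are seen for ethanol in Lyve1, Clec4g, Kdr and Cdh5 and for no marker with IMC.

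The members were set beside 34 other endothelial genes, all of which were tested. For ethanol averaged over treatments 5 of 34 were called, all higher, with a median of 0.17, and without IMC 5 of 34 were called higher, with a median of 0.23. Over all genes 12.9% and 6.33% were called higher in these comparisons. Bmp2, a ligand by which sinusoidal cells act on hepatocyte iron sensing, was higher at 0.47 (SE 0.11, limma adjusted p = 0.00341). Ehd3 was at 0.26 (adjusted p = 0.0103), Tek, the angiopoietin receptor, at 0.25 (adjusted p = 0.0316) and Ptprb, a phosphatase acting on that receptor, at 0.22 (adjusted p = 0.0340). Of 27 alternatives, 9 lost the Tek call (adjusted p up to 0.0728) and 8 the Ptprb call (up to 0.0743). Bmp2 was highest in EtOH IMC (377 ± 49.9) and was between 204 and 244 on average in the other groups. It was higher with IMC in ethanol-fed mice by 0.63 (adjusted p = 0.00633; without library 11 by 0.70, adjusted p = 0.00642) and was not called for ethanol without IMC.

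Ehd3 read 726.1, 724.1, 644.1 and 774.9 in Pair vehicle and lay between 861.9 and 1137 in Pair IMC, with no overlap. It was higher with IMC in pair-fed mice by 0.49 (SE 0.097, adjusted p = 0.00488) and with ethanol without IMC by 0.58 (adjusted p = 0.00156). In ethanol-fed mice IMC gave no call. The difference of the IMC effects was -0.64 (SE 0.14, limma adjusted p = 0.0325), a call that 10 of 27 alternatives lost (adjusted p up to 0.0717). Such a difference cannot be told apart from early and late library numbers, and limma called 1.11% of all genes in that comparison. Clec14a, an endothelial surface lectin-like protein, differed in the same direction, by -1.02 (SE 0.20, limma adjusted p = 0.0244), a call that 4 of 27 alternatives lost (adjusted p up to 0.0536). It was lower with IMC in ethanol-fed mice by 0.57 (adjusted p = 0.00965). Library 11 had its lowest value, 131.2, and without that library the difference was -0.42 (adjusted p = 0.0297). In pair-fed mice it lay between 153.5 and 217.0 in Pair vehicle and between 236.1 and 271.1 in Pair IMC, without overlap, and was not called (0.45, adjusted p = 0.0586). Plvap, a protein of endothelial diaphragms, fell by 0.51 with IMC in ethanol-fed mice (adjusted p = 0.0180; without library 11 by 0.53, adjusted p = 0.0288), and 1 of 28 alternatives lost the call (adjusted p = 0.0570). Myct1 was called lower there at -0.73 (adjusted p = 0.0238), and the call was lost without library 11 (-0.64, adjusted p = 0.0670). Rasip1 was called higher there, at 0.76 (adjusted p = 0.0468), lost the call in 13 of 27 alternatives, and is named although it lies outside the naming rule.

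The VEGF and angiopoietin system around Kdr was represented by 15 tested genes, some of which are also among the endothelial genes above. For ethanol averaged over treatments 2 were called higher (Kdr and Tek) and 2 lower, where 26.1% of all genes were called. Vegfa, the main ligand of Kdr, was lower by 0.24 (SE 0.069, limma adjusted p = 0.0154), with means of 2656 in Pair vehicle, 2218 in Pair IMC, 2174 in EtOH vehicle and 1924 in EtOH IMC, and this was -0.05 (adjusted p = 0.577) in the values as deposited. Angptl4, a secreted inhibitor of lipoprotein lipase, was lower by 0.51 (adjusted p = 0.0236), and 2 of 27 alternatives lost the call (adjusted p up to 0.110). Flt1 (0.14), Tie1 (0.20) and Angpt2 (0.07) were not called. With IMC averaged over diets 2 of 15 were higher and 3 lower, where 28.1% of all genes were called. Nrp2, a coreceptor for VEGF, was lower by 0.59 (SE 0.083, adjusted p = 8.1e-05), and it was lower in both diets. Vegfd was higher by 0.96 (adjusted p = 0.00185), from counts of 11 to 49 reads per library. Angpt1, a ligand of Tek, was lower by 0.91 (adjusted p = 0.00437).

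Genes of the zoned sinusoid and of Notch signaling gave 14 tested genes, of which 3 were higher and 2 lower with ethanol averaged over treatments. Of all genes 26.1% were called in that comparison. Wnt2, a ligand of central sinusoidal cells, read 29.1, 44.3, 27.1 and 59.4 in Pair vehicle and 55.2, 47.0, 35.3 and 63.3 in Pair IMC. It read 68.5, 69.9, 66.5 and 59.8 in EtOH vehicle and 82.2, 94.6, 80.1 and 102 in EtOH IMC. EtOH vehicle lay above Pair vehicle and EtOH IMC above Pair IMC without overlap, where 9.92% and 9.36% of genes were higher without overlap. Wnt2 was higher by 0.82 (SE 0.15, limma adjusted p = 0.00107), 0.78 without IMC (adjusted p = 0.0279) and 0.85 under IMC (adjusted p = 0.0142; without library 11 at 0.82, adjusted p = 0.0280). Of 27 alternatives, 6 lost the call without IMC (adjusted p up to 0.0901) and 1 the call under IMC (0.0520).

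Wnt9b, a ligand of central vein endothelium, was low, at 4 to 68 reads per library. It averaged 11.8 ± 9.64 in Pair vehicle, 23.2 ± 9.79 in Pair IMC, 27.1 ± 12.1 in EtOH vehicle and 50.8 ± 8.85 in EtOH IMC (SD, n = 4). It was higher with ethanol by 1.28 (SE 0.33, limma adjusted p = 0.00823) and with IMC by 1.04 (SE 0.33, limma adjusted p = 0.0231, up to 0.0509 under the alternatives run), each averaged over the other factor. Rspo3, a secreted enhancer of Wnt signaling, was at 0.39 with ethanol and was not called (SE 0.14, limma adjusted p = 0.0515). Ltbp4, a binding protein for latent TGF-beta, was lower by 0.56 with ethanol averaged over treatments (adjusted p = 0.000240). Its means were 374 in Pair vehicle, 306 in Pair IMC, 333 in EtOH vehicle and 158 in EtOH IMC. Without IMC the ethanol difference was -0.16 and was not called (adjusted p = 0.412), and under IMC it was -0.96 (adjusted p = 0.000119). With IMC in ethanol-fed mice Ltbp4 was lower by 1.08 (adjusted p = 2.32e-05; without library 11 by 1.07, adjusted p = 8.7e-05). Cdh13 was lower by 0.58 with ethanol (adjusted p = 0.0211), and 1 of 26 alternatives lost the call (adjusted p = 0.0789). Dll4, a Notch ligand, was not called, at 0.21.

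**Figure D5:**
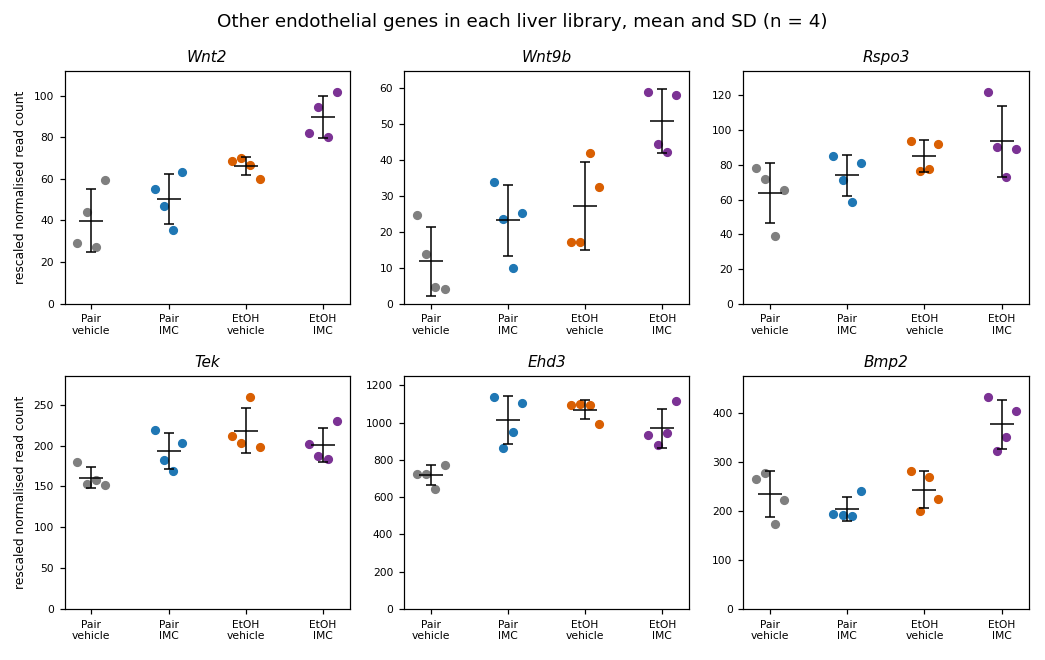
Rescaled normalized read counts of Wnt2, Wnt9b, Rspo3, Tek, Ehd3 and Bmp2 in each library, with mean and SD of each group of 4. Wnt2 and Wnt9b have their highest mean in EtOH IMC (89.6 and 50.8), as does Bmp2 (377), and Ehd3 is lowest in Pair vehicle.

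Hepatocyte genes that respond to Wnt ligands were examined as an 11-gene list, all tested, and did not move one way with ethanol. With ethanol averaged over treatments 2 were higher and 3 lower, with a median of -0.03, where 26.1% of all genes were called. Glul, glutamine synthetase of the central hepatocytes, was lower by 0.38 (SE 0.066, limma adjusted p = 0.000596), and pair-fed and ethanol-fed libraries did not overlap, where 1.19% of genes were lower without overlap. The nearest libraries were close, at 13833 in EtOH vehicle and 13839 in Pair vehicle. Without IMC the Glul difference was -0.17 and was not called (adjusted p = 0.254), and under IMC it was -0.58 (adjusted p = 0.000598). Lgr5, a receptor for R-spondins, was lower by 0.53 (adjusted p = 0.00548) and Znrf3, an inhibitor of Wnt receptors, by 0.34 (adjusted p = 0.00956), a call that was lost in the values as deposited, at -0.15 (adjusted p = 0.186). Rhbg, an ammonium transporter, was higher by 0.98 (adjusted p = 0.000517). Slc1a2, a glutamate transporter, was also called higher, at 0.32 (adjusted p = 0.0482), lost the call in 13 of 27 alternatives (adjusted p up to 0.103), and lies outside the naming rule. With IMC averaged over diets the called genes of this list were Oat (-1.03, limma adjusted p = 0.000296) and Sp5 (-0.97, limma adjusted p = 0.0167). Of all genes 28.1% were called there. Znrf3 (0.05) and Slc1a2 (0.03) were above 0 with IMC and were not called. Nkd1 was called lower with IMC in pair-fed mice, at -0.70 (limma adjusted p = 0.0453), beside Oat and Sp5, where 9.47% of genes were called. In ethanol-fed mice Nkd1 was at 0.08 and was not called.

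Markers of other cells of the liver moved with some of the same groups. Of all genes tested, 26.1% were called with ethanol averaged over treatments and 21.5% with IMC in ethanol-fed mice. For ethanol without IMC 11.9% were called, and for ethanol under IMC 16.4%. Of 11 Kupffer cell markers none was called with ethanol by limma, and the summed level was between 3114 and 8702 in Pair vehicle and between 4995 and 6700 in EtOH vehicle. Of 10 stellate cell markers, 2 were called higher and 1 lower with ethanol averaged over treatments. Lrat, the vitamin A storage enzyme, was higher at 1.2 (SE 0.14, limma adjusted p = 2.44e-05) and Col1a1 at 0.84 (limma adjusted p = 0.0206). Ecm1 was lower, at -0.43 (limma adjusted p = 0.00714), a call that 1 of 27 alternatives lost. The uncalled stellate markers ran from -0.59 (Hand2) to 0.57 (Des). With IMC in ethanol-fed mice 4 of the 10 were called lower. The summed stellate level was 6488 ± 442 in EtOH vehicle and 4492 ± 514 in EtOH IMC (SD, n = 4). All 4 tested blood cell markers were lower with ethanol averaged over treatments, and their list summed to 267 ± 55.7 in Pair vehicle, 305 ± 90.9 in Pair IMC, 212 ± 108 in EtOH vehicle and 92.5 ± 41.6 in EtOH IMC. None of the 4 was called by limma for ethanol without IMC (adjusted p from 0.256 to 0.646), and all 4 were called lower under IMC. The part of these cells in the levels of the members was not tested. Of the vein, capillary and activation genes 1 of 10 was called with ethanol averaged over treatments, Ackr1, lower by 0.97 (adjusted p = 0.0107), from 2 to 14 reads per library. With IMC in ethanol-fed mice Icam1 of this list was called higher, at 0.58 (limma adjusted p = 0.0188). Col4a1 was called lower there, at -0.64 (limma adjusted p = 0.0375), as was Plvap, given above. Of 5 lymphatic markers Ccl21a had no read in any library and Pdpn had at most 11 reads. Prox1, which hepatocytes also express, and Reln, which stellate cells express, were the abundant ones. Bile duct and hepatocyte markers were called with ethanol averaged over treatments in 0 of 5 and in 1 of 5 (Apoa1, lower by 0.41, a call that 2 of 27 alternatives lost), and lymphocyte markers in 0 of 2. The summed hepatocyte level was lower on average in ethanol-fed livers, where the members' sum was higher on average. The hepatocyte sum was between 1691520 and 1818220 in Pair IMC and between 1001120 and 1304710 in EtOH IMC, without overlap. Without IMC the groups overlapped, at 1126780 to 1854950 in Pair vehicle (mean 1408740) and 1111150 to 1207930 in EtOH vehicle (mean 1160600). There Apob (0.39) and Ahsg (0.05) were above 0 with ethanol, Alb (-0.35), Apoa1 (-0.38) and Ttr (-0.17) were below 0, and none was called. The part of the hepatocyte sum in the levels of the members was not tested.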

How the data were processed

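Liver RNA of 16 mice was sequenced from a directional TruSeq kit, as paired-end reads according to the labels and as single-end reads according to the methods. The authors used Trim Galore, FastQC, STAR with the mm10 genome, and edgeR for scaling; how reads were counted is not given in the sources used here. The deposited signal values are read counts that the authors divided by a factor for each library. Dividing back by the value of 1 read (0.906 to 1.18) gave whole reads for 100% of values, with a tolerance of 0.01. That value is near 1 in library 15, so the count tests were repeated without it, a choice made after seeing the data. The 27212 rows hold 24082 Ensembl IDs.

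For the tests, libraries were rescaled together by a median ratio, and a gene was kept when 4 or more libraries reached a value of 10. This left 12543 genes for limma 3.58.1 in R 4.3.3, which fitted the 4 groups on log2(value + 1) with moderated variances (trend), in 7 two-sided contrasts with Benjamini-Hochberg adjustment and a threshold of 0.05. No pair of libraries of a group was a copy of another (chi-square per gene 4.81 to 36.3, 24 pairs). The p-values measure the spread between these libraries. The fit was tested on simulated data. The alternatives were values as deposited, quantile normalization, a pseudocount of 0.1 or 5, no filter, a mean of 100 or more, the 8 libraries of a comparison alone, leaving out single libraries, and count tests on whole reads with edgeR 4.0.16 and DESeq2 1.42.0. Positions and lengths come from GENCODE vM21 (GRCm38). The members, lists and alternatives were chosen with earlier results of these data known. Named beside the members are up to 4 genes a list and contrast with the smallest adjusted p under the threshold, 9 ligands and receptors (Wnt2, Wnt9b, Rspo3, Vegfa, Flt1, Tek, Tie1, Angpt2 and Dll4) and the 10 genes most like the members. Tf and Figf were not matched to the table.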

Additional observations from a re-analysis of the deposited data

Results flagged for a closer look

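In 40 groups of 4 libraries (10 members in 4 groups), 3 single libraries stood apart from the rest of their group, by a gap to the nearest value that was too large a share of the group's range by Dixon's criterion, which chance also meets in some groups. Lyve1 in library 16 of Pair vehicle was the highest of its group, at 200.6, with a gap of 0.859 of the range. Kdr in library 5 of EtOH vehicle was the highest, at 826.1 (0.953 of the range). Pecam1 in library 14 of Pair vehicle was the lowest, at 228.9 (0.940 of the range). Without library 16 the Lyve1 difference for ethanol without IMC went from 0.49 to 0.77 on the log2 scale and was called (limma adjusted p = 0.0328). Without library 5 the Kdr call for ethanol averaged over treatments was lost (0.23, limma adjusted p = 0.0581), as it was without library 2, 12, 13 or 14.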

How the results depend on the processing

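With 4 mice per group, small differences can be missed, and a gene that was not called may still differ by an amount inside its interval. Genes with few reads, such as Wnt9b, are limited most. No paired analysis was run because the labels do not say which pair-fed mouse was matched to which ethanol-fed mouse. Clec4g and Cdh5 kept their calls for ethanol averaged over treatments under every alternative run. For ethanol, the values as deposited called 6 members without IMC (1 in the report), 4 under IMC (1) and 7 on average (4), since they contain the shift of the median gene. Under IMC, no filter and only the 8 libraries of the comparison each called 0, and DESeq2 called 2. Without IMC, only the 8 libraries and, without library 15, edgeR and DESeq2 each called 2. For IMC in ethanol-fed mice, quantile normalization and, without library 15, edgeR and DESeq2 each called 1 (0 in the report).

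Leaving out a library in turn gave 0 to 1 members called for IMC in ethanol-fed mice and averaged, 0 to 2 for ethanol without and under IMC, and 2 to 4 for ethanol averaged. The sign of uncalled differences near 0 turned. In the values as deposited, ethanol under IMC was 0.18 for Stab1, 0.040 for Stab2 and 0.18 for Dnase1l3, and averaged ethanol was 0.17 for Stab2 and 0.082 for Fcgr2b. With quantile normalization ethanol under IMC was 0.042 for Stab1 and 0.034 for Dnase1l3, and averaged ethanol was 0.020 for Stab2. With edgeR (TMM) ethanol under IMC was 0.0011 for Stab1 and 0.019 for Dnase1l3, averaged ethanol was 0.0040 for Stab2, and IMC in pair-fed mice was -0.080 for Lyve1. With edgeR (upper quartile) they were 0.030, 0.050, 0.030 and -0.098. With DESeq2 ethanol under IMC was 0.011 for Dnase1l3 and IMC in pair-fed mice was -0.066 for Lyve1, and without library 15 the latter was -0.072 in edgeR and -0.066 in DESeq2. The cause was not tested.

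With each library left out, IMC in pair-fed mice ran from -0.041 to 0.12 for Stab2, from -0.11 to 0.28 for Lyve1 and from -0.028 to 0.17 for Pecam1. IMC in ethanol-fed mice ran from -0.030 to 0.16 for Stab1, from -0.089 to 0.038 for Pecam1 and from -0.22 to 0.038 for Dnase1l3. Ethanol without IMC ran from -0.013 to 0.059 for Fcgr2b. Ethanol under IMC ran from -0.13 to 0.11 for Stab1, from -0.26 to 0.032 for Stab2, from -0.028 to 0.17 for Pecam1 and from -0.17 to 0.087 for Dnase1l3. Averaged ethanol ran from -0.00014 to 0.12 for Stab1 and from -0.073 to 0.074 for Stab2.

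Counts over all genes moved by more than 1.5 times in some settings. The values as deposited called 3003 genes for ethanol without IMC (1488 in the report), 3618 under IMC (2060) and 5220 averaged (3268). IMC in pair-fed mice gave 1188 genes, 691 with only 8 libraries and 537 or 543 without library 4 or 6 of Pair IMC. Ethanol without IMC gave 974 without library 14 and 802 without library 5, and ethanol under IMC gave 1364 without library 15, or 1350 with edgeR. The difference of the IMC effects gave 139 genes, 80 with no filter, 340 with DESeq2 (256 without library 15), 72 with edgeR without library 15, and between 54 and 159 with a library left out.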

Other observations

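Some genes beside the endothelial lists had larger differences with IMC than any of the 10 markers. Reln, a stellate cell gene in the liver that was listed with the lymphatic markers, fell by 1.26 with IMC in ethanol-fed mice (log2 scale, SE 0.17, limma adjusted p = 8.6e-05), with means of 960 ± 148 in EtOH vehicle and 404 ± 87.9 in EtOH IMC (SD, n = 4), and by 1.31 without library 11 (adjusted p = 0.000178). Ecm1, an extracellular matrix protein of stellate cells, fell by 1.18 in the same comparison (log2 scale, SE 0.15, limma adjusted p = 7.2e-05), and by 1.17 without library 11 (adjusted p = 0.000218). In pair-fed mice IMC gave no call for Reln (0.03, limma adjusted p = 0.928) or Ecm1 (-0.07, limma adjusted p = 0.812). The difference of the IMC effects was called for Reln (-1.30, limma adjusted p = 0.0133) and Ecm1 (-1.11, limma adjusted p = 0.0192). Limma called 1.11% of all genes there. Oat, ornithine aminotransferase, among the hepatocyte Wnt target genes, fell by 1.03 with IMC averaged over diets (log2 scale, SE 0.17, limma adjusted p = 0.000296), and was called lower in each diet, a call that 7 of 28 alternatives lost in pair-fed mice (adjusted p up to 0.0806). Sp5, a transcription factor induced by Wnt signaling, fell by 1.74 with IMC in pair-fed mice (log2 scale, SE 0.40, limma adjusted p = 0.0128). In ethanol-fed mice Sp5 was at -0.19 with IMC and was not called (limma adjusted p = 0.771). The comparisons within a diet also compare early with late library numbers, and the difference of the IMC effects cannot be told apart from these numbers.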
